A study of Arabidopsis thaliana with 4 samples.

Results

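The 5 genes described here, AT2G29500, AT5G48570, AT5G51440, ATHSP22.0 and Hop3, encode heat shock proteins and co-chaperones, and each is read by 1 probe set among the 13286 genes that could be named singly on Affymetrix ATH1 arrays of *Arabidopsis thaliana*. They were chosen because their transcripts were higher in the ref6-1 mutant than in the wild type on these same arrays, so their difference between genotypes is a description and carries no test. Transcript levels were measured in 2 arrays of wild-type Col and 2 of ref6-1, a mutant allele of the histone demethylase gene REF6 (also called JMJ12) in the Col background. REF6 removes repressive methyl groups from lysine 27 of histone H3. The whole seedlings of both genotypes were untreated, came from MS plates at 23 °C under days of 16 h of light and 8 h of darkness, and were harvested at 10 days after germination. The labels call the 2 arrays of a genotype biological replicates without saying how the plants were grouped, so the spread given is that between these samples. Only 1 mutant allele was used, so the effect of this line and that of the loss of REF6 cannot be told apart.

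Heat shock proteins are molecular chaperones that hold, fold or disaggregate other proteins. Small heat shock proteins bind unfolding proteins and keep them from aggregating, and HSP70 and HSP90 use ATP to refold or mature them. Co-chaperones such as Hop, which bridges HSP70 and HSP90, and the large FKBP-type peptidyl-prolyl isomerases, which bind HSP90, steer that work. In plants many of these genes are transcribed at a low level in cool conditions and strongly after a rise in temperature, under the control of heat shock transcription factors. ATHSP22.0 is a small heat shock protein of the endoplasmic reticulum. AT5G48570, also named FKBP65 and ROF2, is an FKBP-type isomerase. Hop3 is one of the Hop proteins. For AT2G29500 and AT5G51440 the tables used here give only the locus code, and they are placed among the small heat shock proteins from general knowledge of these loci.

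The arrays were alike in median intensity and in correlation. Median intensities lay between 142.6 and 146.3, and the correlation of log2 values across probe sets, which are not replicates, was 0.994 between the Col arrays, 0.995 between the ref6-1 arrays and 0.988 to 0.994 between genotypes. The ratio of 3' to 5' intensity, a sign of RNA integrity, averaged 5.04 ± 0.0937 (SD, n = 2) for actin on the Col arrays and 4.87 ± 0.315 on the ref6-1 arrays. For GAPDH it was 2.50 ± 0.438 and 2.26 ± 0.184. For ubiquitin it was 2.06 to 2.14 on the Col arrays and 1.98 to 1.99 on the ref6-1 arrays, so that the genotypes did not overlap. All 3 ratios were lower on average in ref6-1, no limit was set on them, and their part in the results was not tested. The leaf markers RCA and LHCB4.1 and the root hair markers EXPA7 and EXPA18 had log2 differences between genotypes of 0.02 to 0.11, and 0 of these 4 genes passed the limma test. They are 2 of the 4 leaf and 2 of the 3 root hair markers listed. The rest of these, the seed and flower markers listed and the REF6 transcript itself carry no single-gene name in the annotation used. The genotype labels were therefore not checked against REF6.

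All values below are deposited intensities on a linear scale, and log2 differences are ref6-1 minus Col after 16 was added to every intensity, so differences of dim probe sets come out too small. In whole seedlings, a change in the number of cells that express a gene and a change in its RNA per cell cannot be told apart. Since different probe sets bind their targets with different strength, intensities are compared between arrays and not between genes.

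The small heat shock protein gene AT2G29500 had the highest difference of the 5. Its intensity was 230.0 and 245.0 in the Col arrays and 625 and 613 in the ref6-1 arrays. Both mutant arrays were above both wild-type arrays, and the replicates of each genotype lay close together. The means were 237 ± 10.6 in Col and 619 ± 8.50 in ref6-1 (SD, n = 2 each), a ratio of 2.61 and a log2 difference of 1.33. Among all 22746 probe sets it ranked 6 from the highest log2 difference.

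AT5G51440, also a small heat shock protein gene, was read at 285 and 243 in Col and at 622 and 489 in ref6-1. The groups did not overlap, but the ref6-1 arrays were farther apart than for any other of the 5 genes. The means were 264 ± 29.9 in Col and 555 ± 94.3 in ref6-1, a ratio of 2.10 and a log2 difference of 1.02. Depending on which array was left out, this log2 difference lay between 0.85 and 1.19. In both genotypes replicate 1 was the higher array, but the labels do not tie a replicate number of Col to that of ref6-1.

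For ATHSP22.0 the Col arrays read 220 and 198, against 385 and 357 on the mutant arrays. Here too replicate 1 was the higher array in both genotypes, and the groups did not overlap. The means of 209 ± 16.0 and 371 ± 19.6 gave a ratio of 1.78 and a log2 difference of 0.78. It ranked 62 from the highest among all probe sets.

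Among the co-chaperones, the FKBP-type isomerase gene AT5G48570 stood at 743 and 799 on the Col arrays and reached 1904 and 1974 on those of ref6-1. The lowest mutant array was 1105 intensity units above the highest wild-type array. The means were 771 ± 39.9 and 1939 ± 49.4, a ratio of 2.51 and a log2 difference of 1.31, ranking 7 from the highest. Replicate 2 was the higher array in both genotypes, unlike for AT5G51440 and ATHSP22.0, though the labels do not tie these numbers across genotypes.

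Hop3, whose protein passes clients from HSP70 to HSP90, gave 693 and 707 on the wild-type arrays and 1066 and 1055 on the mutant arrays. Its replicates were the closest of the 5 genes, with log2 gaps of 0.03 in Col and 0.01 in ref6-1. The means of 699.9 ± 10.3 and 1060.4 ± 7.91 gave a ratio of 1.52 and a log2 difference of 0.59, the lowest of the 5, at rank 134. The intensities by array are plotted for each gene.

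**Figure D1:**
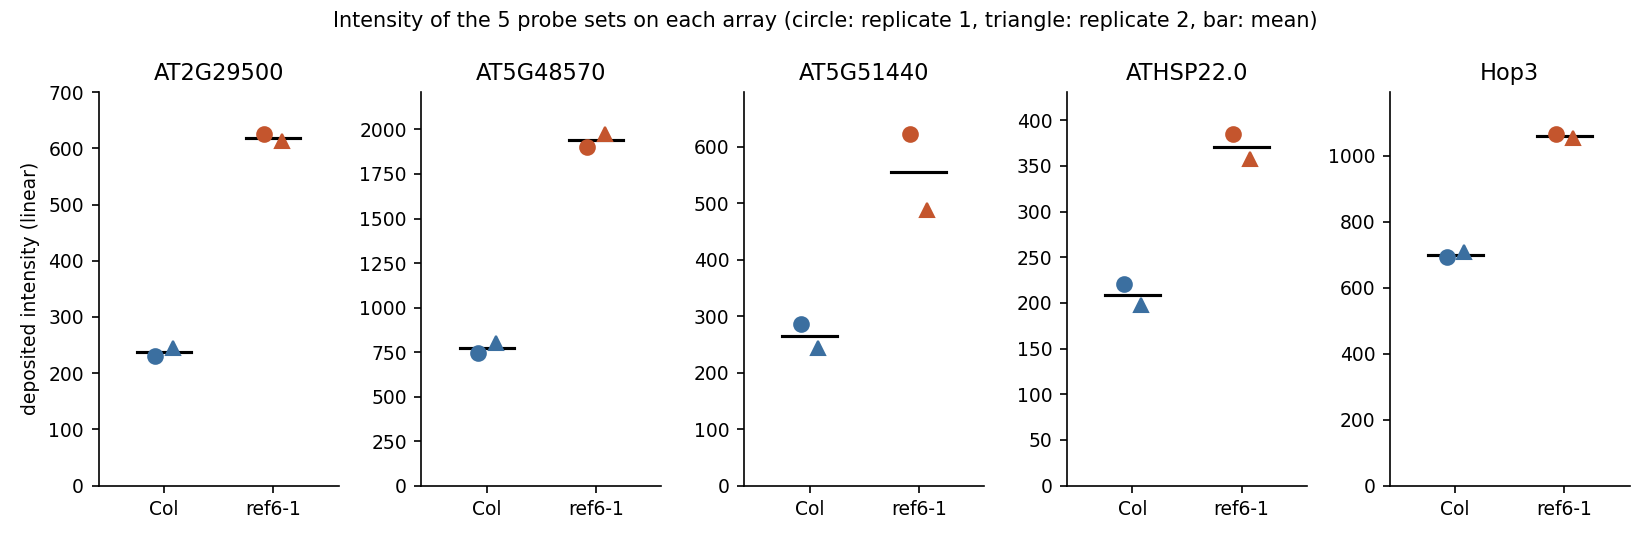
Deposited intensity (linear axis from 0, with its own scale for each gene) of the 5 probe sets on each of the 4 arrays; blue is Col, red is ref6-1, circles are replicate 1, triangles replicate 2, and bars the mean of 2. In all 5 genes both ref6-1 arrays lie above both Col arrays, from a ratio of means of 1.52 for Hop3 to 2.61 for AT2G29500, with the widest replicate spread for AT5G51440.

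The 5 log2 differences had a median of 1.02, beside a median of -0.02 over all probe sets tested. All 5 probe sets are among the 176 that limma called higher in ref6-1 (adjusted p threshold of 0.05), 0.774% of those tested, and all 5 were without overlap between genotypes, as were 16.1% of all probe sets in this direction. Both counts follow from how the genes were chosen. The order of the 5 differences can be read against the spread of single arrays. From the lowest mutant to the highest wild-type array the log2 step was 1.27 for AT2G29500 and 1.24 for AT5G48570, and the widest steps were 1.38 and 1.39, so these neighbours in the order were not separated. AT5G51440 spanned steps of 0.74 to 1.30, which overlap those of AT2G29500 and AT5G48570 above it and those of ATHSP22.0 below it, at 0.66 to 0.91. Hop3, with steps of 0.57 to 0.61, lay below the range of each of the other 4.

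**Figure D2:**
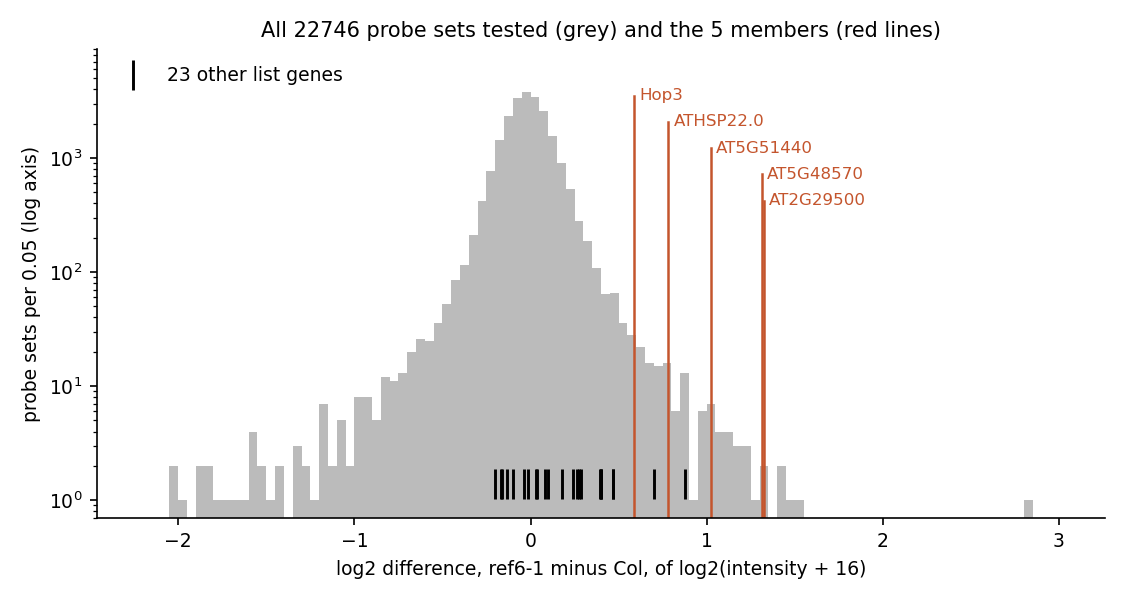
Histogram of the log2 difference between ref6-1 and Col for all 22746 probe sets tested (grey, log axis of counts per 0.05), with red lines at the 5 genes and black ticks at 23 other heat shock and chaperone genes. The 5 genes lie between 0.59 and 1.33, at ranks 6 to 134 from the highest, and the other 23 lie between -0.20 and 0.88.

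Other genes of the heat shock and chaperone system were read from 9 lists drawn up by locus code, holding 118 genes in all. The annotation used gives a single-gene probe set for 28 of the 118, and for none of the genes in 3 lists, those of HSP90, of HSP100 with chaperonins, and of heat shock factors with other regulators. A further 2 small heat shock protein genes appear only in probe sets of several genes and are not given. Besides the 5 genes above, 23 could therefore be tested, in the limma fit over all 22746 probe sets with Benjamini-Hochberg adjustment. Of these 23, 2 were called higher in ref6-1, 0 lower and 21 did not pass. The count called higher was 1 after quantile normalization, without the dimmest 30% of probe sets, with no intensity trend and with a robust prior. It was 2 after median centring, 3 with a pseudocount of 1 and 2 with one of 64. With the replicate number as a block it was 9. That block fit called 790 of all 22746 probe sets higher, beside 176 in the fit as reported. The labels do not tie replicate numbers across genotypes, so they give no ground for that block. In the fit as reported, the share called higher was 8.70%, beside 0.774% of all probe sets, while 0.708% of all probe sets were called lower. At an unadjusted p under 0.05, 10 of the 23 were higher (43.5%, beside 4.12% of all probe sets) and 0 were lower. The share of all probe sets lower at that limit was not counted, so the 0 cannot be read as a lack. Both mutant arrays were above both wild-type arrays for 13 of the 23 (56.5%, beside 16.1%) and below them for 3 (13.0%, beside 19.5%). The median log2 difference of the 23 was 0.18. The lists were chosen with earlier results of these arrays known, and these shares have no test of their own.

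Among the small heat shock protein genes, 6 besides the 3 above were measured, and 1 was called. AT1G54050 rose from 1189 and 1132 in the Col arrays to 2353 and 1952 in the ref6-1 arrays. The groups did not overlap, and the log2 difference of 0.88 (SE 0.112, limma adjusted p = 0.00353) lies between those of AT5G51440 and ATHSP22.0. It also passed when any 1 of the 4 arrays was left out. AT5G37670 had 93.8 and 65.8 in Col and 187 and 101 in ref6-1, again without overlap, but with the ref6-1 arrays far apart. Its log2 difference of 0.70 (95% interval 0.19 to 1.21) did not pass with all arrays (limma adjusted p = 0.301), and single arrays moved it by more than 1.5 times. It was 0.30 without ref6-1 replicate 1 and 0.49 without Col replicate 2 (limma adjusted p = 0.716 and 0.253), and it passed at 0.91 without Col replicate 1 and at 1.10 without ref6-1 replicate 2. AT2G19310 had 1393 and 1236 in Col and 1702 and 1769 in ref6-1, a log2 difference of 0.40 that did not pass (limma adjusted p = 0.121).

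The other 3 small heat shock protein genes had values below 0. AT1G53540 had 6315 and 5446 in Col and 5661 and 5938 in ref6-1. The groups overlapped, and the log2 difference was -0.02 with a 95% interval of -0.25 to 0.22. The 3 small heat shock protein genes described first lay above that interval, and since they were picked for their difference this was not tested. AT4G21870 was at -0.16 (95% interval -0.41 to 0.09). AT1G52560, a dim probe set, was at -0.20 (-0.57 to 0.16), and its direction rested on 1 array. It was 0.08 without Col replicate 1, which read 80.9 beside 49.8 for the other Col array, and was called lower without Col replicate 2, at -0.48 (limma adjusted p = 0.0433). The measured small heat shock protein genes thus ranged from -0.20 to 1.33.

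Co-chaperone genes other than Hop3 numbered 9, of which 1 was called. SGT1A, a co-chaperone of HSP90 known from plant immunity, rose from 658 and 687 in Col to 926 and 949 in ref6-1, a log2 difference of 0.47 (SE 0.0941, limma adjusted p = 0.0419). The groups did not overlap, but the adjusted p lay between 0.0602 and 0.238 when any 1 array was left out. Fes1A, a nucleotide exchange factor of HSP70, had 648 and 686 in Col and 898 and 958 in ref6-1. Its log2 difference of 0.47 lay on the other side of the threshold (limma adjusted p = 0.0506). The related Fes1B and Fes1C were at -0.17 and -0.10 (limma adjusted p = 0.756 and 0.909). For each of them the ref6-1 arrays lay below the Col arrays without overlap.

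The Hop family gives the closest comparison for Hop3. Hop1 was read at 319 and 321 on the Col arrays and at 337 and 318 on the mutant arrays, overlapping between genotypes, and a log2 difference of 0.03 (95% interval -0.18 to 0.25). Hop2 had 387 and 393 in Col and 417 and 472 in ref6-1, a log2 difference of 0.18 (-0.05 to 0.41, limma adjusted p = 0.756). Hop3, at 0.59, lay above both intervals, and since it was picked for its difference this was not tested. Of the other co-chaperone loci, AT3G12050 was at 0.40 (limma adjusted p = 0.102), AT2G20560 at 0.24 and AT4G02450 at -0.04.

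HSA32, a heat-induced gene needed for acquired thermotolerance, had 725 and 717 in Col and 963 and 941 in ref6-1. The groups were apart, with a log2 difference of 0.39 that did not pass (SE 0.0931, limma adjusted p = 0.0909). In the HSP70 list 3 genes were measured and 0 of them called. AT3G09440 was at 0.28 (95% interval 0.06 to 0.49), AT1G11660 at 0.03 and Hsp70-2 at -0.13 (-0.37 to 0.10). Without overlap, the ref6-1 arrays lay above the Col arrays for AT3G09440 and below them for Hsp70-2. The endoplasmic reticulum is also the compartment of ATHSP22.0. Of the 4 genes measured from the list of chaperones of that compartment, 0 were called. All 4 values were above 0, beside a median of -0.02 over all probe sets. They were 0.29 for AT4G16660, 0.27 for AT5G07340, 0.10 for CRT1b, a calreticulin that folds glycoproteins, and 0.08 for ATERDJ3B, a co-chaperone of the HSP70 of that compartment.

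A further 7 chaperone genes that the tables name but the lists do not hold were taken after the annotation had been read. Of the 7, 1 plastid chaperonin gene was called higher and 1 lower, beside 0.774% and 0.708% of all probe sets. Cpn60beta2 rose from 927 and 889 in Col to 1367 and 1313 in ref6-1, a log2 difference of 0.55 (SE 0.0945, limma adjusted p = 0.0181), and did not pass without Col replicate 2 (limma adjusted p = 0.0610). Cpn60beta3 fell from 158 and 162 to 98.9 and 94.7, a log2 difference of -0.64 (SE 0.0986, limma adjusted p = 0.0101). It was called lower under each other setting that kept all arrays, and lay between -0.67 and -0.62 when 1 array was left out. Cpn60beta4 was at 0.01. CLPB2, an HSP100-type protein, was read by a dim probe set, at 45.5 and 42.7 in Col and 31.4 and 36.6 in ref6-1. Its log2 difference was -0.27 (limma adjusted p = 0.496), and it was -0.37 with a pseudocount of 1 and -0.14 with one of 64. ATJ1, ATERDJ2A and ATERDJ2B, all of the J-domain kind that activates HSP70, lay between -0.06 and 0.14 without passing.

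**Figure D3:**
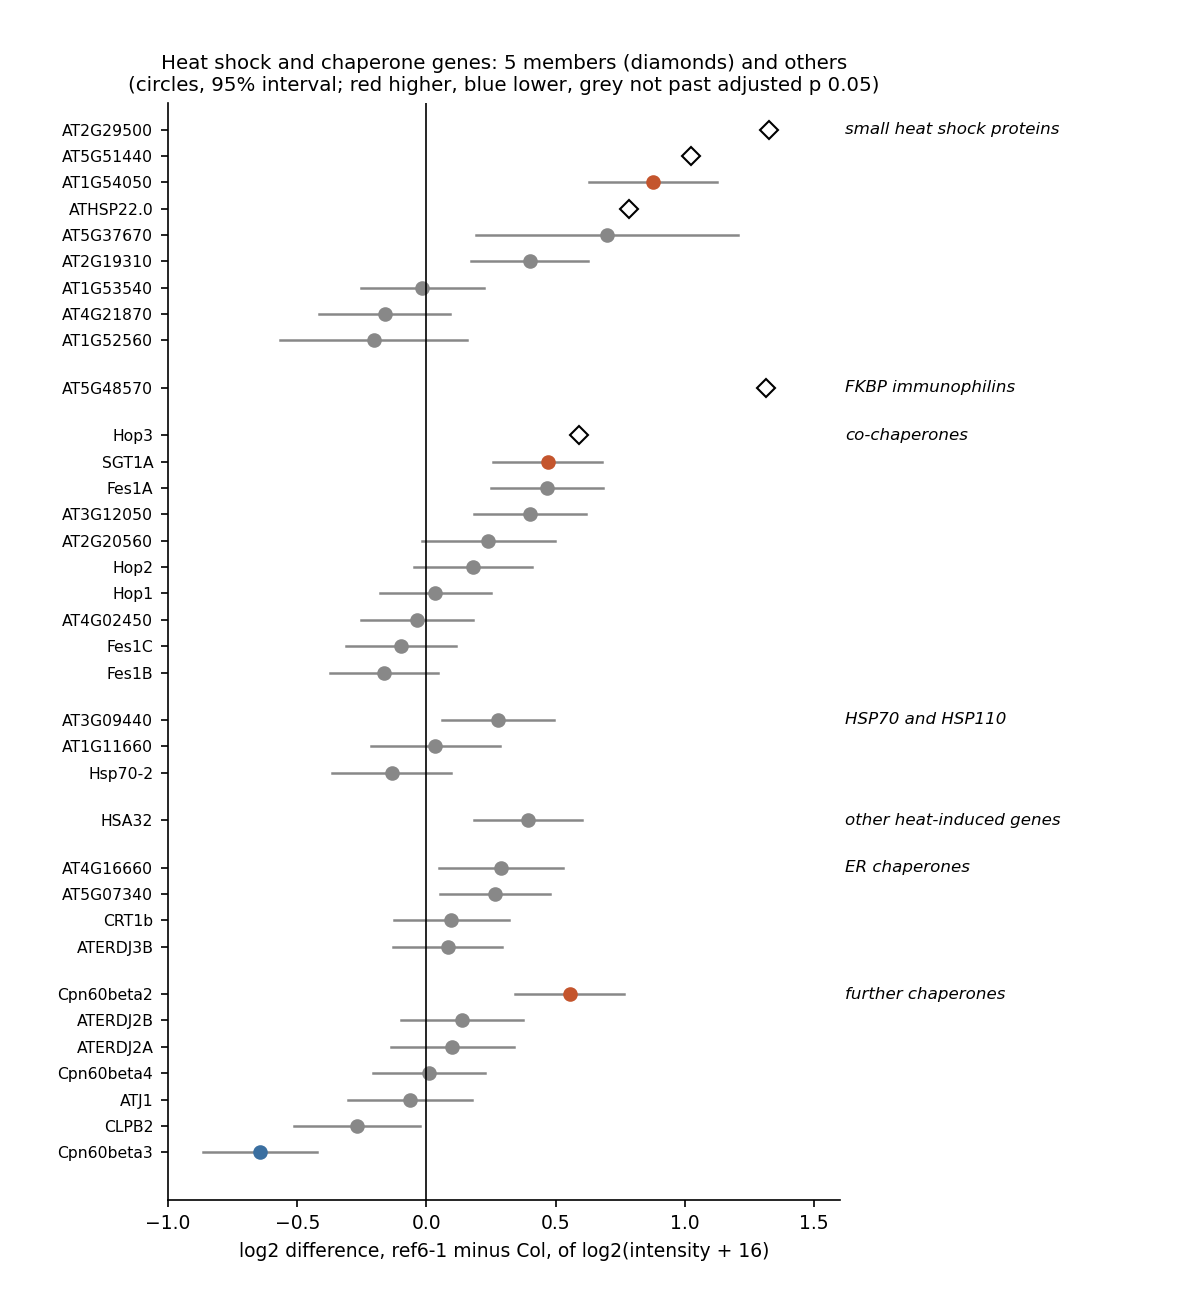
Log2 difference, ref6-1 minus Col, for the measured heat shock and chaperone genes, grouped by list; diamonds are the 5 chosen genes, circles the others with their 95% interval from limma, red called higher, blue called lower and grey not past an adjusted p of 0.05. AT1G54050 and SGT1A are the red circles of the fixed lists, at 0.88 and 0.47, and Cpn60beta2 and Cpn60beta3 are at 0.55 and -0.64.

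The pattern over the 4 arrays was compared with that of all other singly named probe sets, as the root mean square distance, on the log2 scale and over 4 arrays, to the mean profile of the 5 genes after centring each gene. The nearest was AT4G34150 at a distance of 0.0258, which read 733 and 692 on the Col arrays and 1449 and 1377 on the mutant arrays. AT2G34930, AT1G20030, AT2G27080 and AT3G53310 followed at distances of 0.0541 to 0.0680, with log2 differences of 0.90 to 1.10. None of these 5 is in the heat shock lists. The 5 chosen genes themselves lay from 0.112 (AT5G51440) to 0.212 (Hop3) away from their mean. Other named probe sets nearer to that mean numbered 11 each for AT5G51440 and ATHSP22.0, 23 each for AT2G29500 and AT5G48570, and 34 for Hop3. The 5 nearest genes were picked as the closest of all named probe sets, so their smaller distances follow from that pick. The distance takes in the size of the genotype difference as well as the pattern between replicates.

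**Figure D4:**
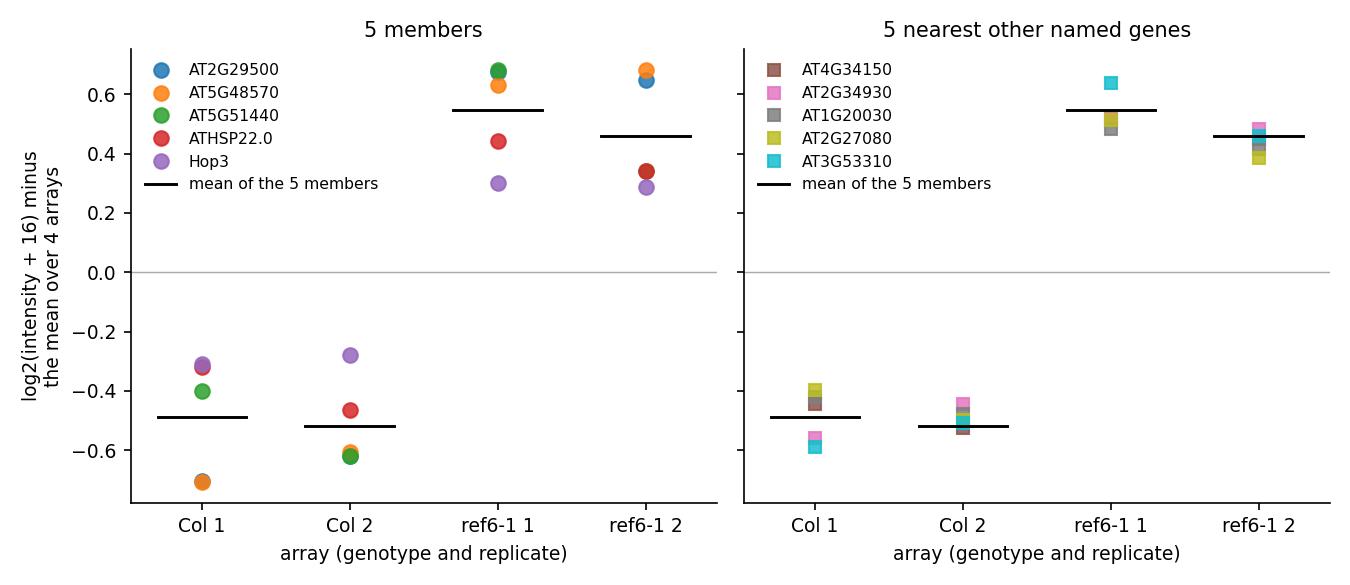
Log2(intensity + 16) minus each gene's mean over the 4 arrays, for the 5 chosen genes (left) and the 5 nearest other named genes (right); black bars are the mean of the 5 chosen genes on each array. The nearest genes, picked for their closeness, sit within a distance of 0.0680 of the bars, and the chosen genes lie at up to 0.212.

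Neighbouring genes on the chromosome were mostly not measured under a single name. Of the 10 protein-coding loci next to the 5 genes in the RefSeq order, 2 were, and 0 of them passed. AT2G29510, next to AT2G29500, was at 0.12 (95% interval -0.14 to 0.38), and AT4G10260, next to ATHSP22.0, at -0.17 (-0.45 to 0.11).

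Of the 12 alternatives, 8 can change the log2 difference of a gene. Under these 8 the values of the 5 genes lay between 0.56 for Hop3 with a pseudocount of 64 and 1.38 for AT2G29500 with a pseudocount of 1. Their sign is no sign of stability, since the genes were picked from these arrays and their groups do not overlap, which fixes the direction when 1 array is left out.

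**Figure D5:**
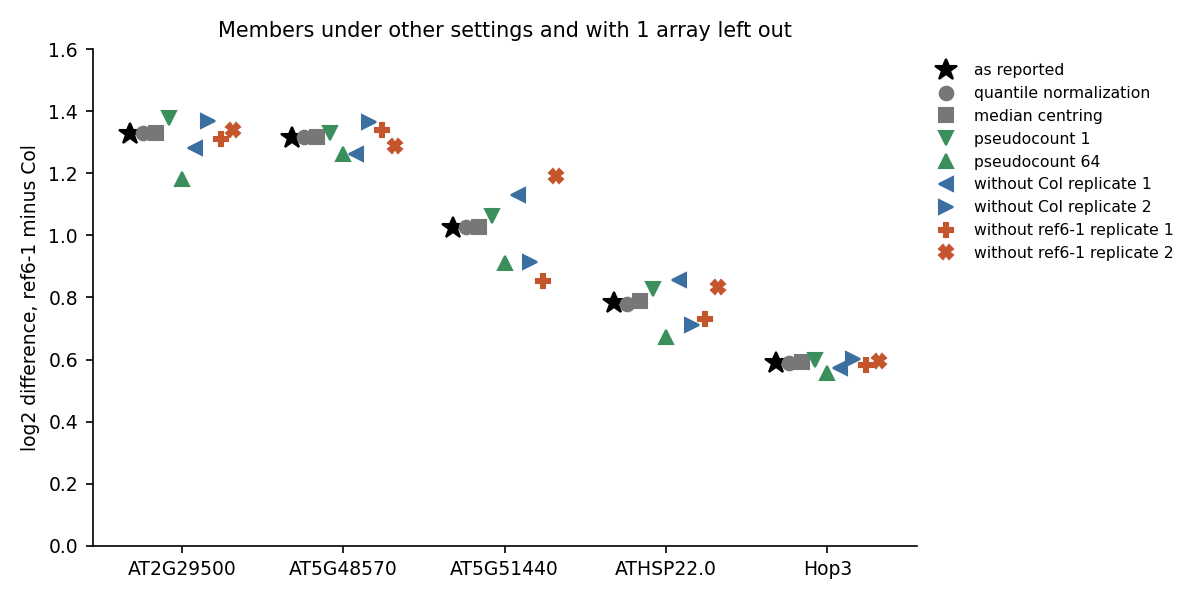
Log2 difference of the 5 genes as reported (star), after other normalizations (grey), with other pseudocounts (green), and without 1 Col (blue) or 1 ref6-1 array (red). AT5G51440 has the widest range when 1 array is left out, 0.85 to 1.19, and Hop3 the narrowest, 0.57 to 0.60.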

How the data were processed

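Per the labels' protocols, each array was hybridised with biotinylated cRNA from 10 ug of Trizol-extracted RNA. The authors deposited 1 intensity per probe set and array on a linear scale; no source used here states how probes were summarized, background-corrected and scaled. The lowest value was 1, held by 10 to 17 probe sets per array.

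The 64 control probe sets were left out. The genotypes were tested against each other on log2(intensity + 16) with limma 3.58.1 under R 4.3.3, two-sided, using lmFit and then eBayes with a trend over intensity. P-values were Benjamini-Hochberg adjusted over the other 22746 probe sets, with calls at 0.05. Genes come from the platform annotation and RefSeq assembly TAIR10.1: 13513 probe sets name 1 gene, 503 several, and 8730 are unlisted. Coordinates are left out because no build is stated for the array.

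The members and lists were chosen with earlier results of these data known. Genes named are the 5, the listed genes, with those past the threshold in full, and the 5 nearest profiles. The replicate numbers of the genotypes are given no shared batch in the labels.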

Additional observations from a re-analysis of the deposited data

How the results depend on the processing

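The alternatives were median centring, quantile normalization, a pseudocount of 1 or of 64, a filter on the dimmest 30% of probe sets, a fit with no intensity trend, a robust prior, and each array left out in turn, a lone array being assumed to vary like the other genotype. For the 5 genes the filter, the priors and the block leave the log2 difference as reported, and the direction under the other settings is no sign of stability, since they were picked for it. With a pseudocount of 64 the log2 difference was 1.18 for AT2G29500, 0.673 for ATHSP22.0 and 0.558 for Hop3, and with a pseudocount of 1 it was 1.38 for AT2G29500, as the pseudocount's own construction gives. The 337 probe sets called (176 higher) became 273 to 533 when 1 array was left out (533 without Col replicate 2), 143 to 238 of them higher. The 2 other list genes called became 1 after quantile normalization, 1 without the dimmest 30%, 1 with no intensity trend and 1 with a robust prior, with AT1G54050 staying and SGT1A lost at adjusted p of 0.0508 to 0.0576, and 1 to 2 without 1 array, where SGT1A was lost each time; the cause was not tested. Fes1A passed with a pseudocount of 1 and without ref6-1 replicate 1 (adjusted p = 0.0486 and 0.0452). A fit that takes the replicate number as a block called 1636 probe sets, among them 790 higher ones, and 9 of the 23 list genes as higher. The replicates share only a number: with 2 pairs, a correlation of 0.279 between their differences does not establish a pairing. Every list gene had 1 probe set, so counting all of them left 2. The unstated background correction limits what dim probe sets can show.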
